A study of Homo sapiens with 29 samples.

Results

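The genes described are 10 heat shock proteins of the cytosol and the mitochondrion, chosen by symbol and found in the count table by Ensembl identifier: HSPA1A, HSPA8, HSPH1, DNAJB1, BAG3, HSP90AA1, CHORDC1, HSPB1, HSPD1 and HSPE1. All 10 were among the 66025 entries of the table, and 9 were among the 21259 entries that passed the filter on low counts. They were measured by sequencing of polyadenylated RNA in EndoC-βH1, an immortalised human pancreatic β-cell line. The cells were kept for 10 days in EndoC-βH1 medium that HEK293 cells, a human embryonic kidney line, had conditioned for 3 hours and that was replaced daily, filtered and matched for protein. The HEK293 cells carried, in stable overexpression, 1 of 3 constructs. These were the empty vector (EV), behind 9 libraries of EndoC-βH1 RNA, the wild-type CEL gene (WT), behind 10, and a mutant form of CEL (MUT), behind 10, so the controls too were grown in HEK293-conditioned medium. CEL is the digestive carboxyl ester lipase of pancreatic acinar cells, and the labels do not name the mutation. All libraries came from 1 β-cell line, and no label states that libraries with the same batch and medium were grown apart. The spread behind each p-value may therefore be technical.

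The 29 libraries fell into 3 labelled batches, the first with 3 EV, 4 WT and 4 MUT libraries and the others with 3 of each. What a batch stands for (culture, extraction or sequencing run) is not given in the labels. Totals ran from 26.2 to 40.2 M estimated counts per library. The 10 β-cell markers examined were all present in every library (INS, the insulin gene, had a median of 10749 CPM, that is, scaled counts per M counts of the library). Of 5 acinar markers, PRSS1, AMY2A, CELA3A and PNLIP had a median of 0, while CPA1 had a median of 31.3 CPM. Of the other islet hormones examined, SST had a median of 136 CPM, and GCG, GHRL and PPY had 1.01 or less. Of the duct markers, KRT19 had a median of 46.5 CPM, and SOX9 and CFTR had 0.641 or less. Of the fibroblast and blood markers, COL1A1 had a median of 3.89 CPM, and COL3A1, PTPRC and PECAM1 had 0.113 or less. The mitochondrial share of the counts was 6.98% ± 0.735 in batch 1 (SD, n = 11), 4.70% ± 0.553 in batch 2 (n = 9) and 4.46% ± 0.394 in batch 3 (n = 9). In bulk RNA, fewer cells of a kind and less RNA per cell cannot be told apart.

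Heat shock proteins are chaperones: they bind unfolded protein, keep it from aggregating and help it fold. HSP70 proteins bind short unfolded stretches in a cycle driven by ATP, which J-domain proteins start and nucleotide exchange factors reset, while HSP90 takes over clients near the folded state and the mitochondrial chaperonin encloses them in a chamber. Heat shock factor 1 (HSF1) induces many of these genes by binding inverted repeats of the letters GAA. β-cells make very large amounts of 1 secreted protein and rely on chaperones of the endoplasmic reticulum for it, whereas the genes here serve the cytosol, nucleus and mitochondrion.

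The letters that HSF1 reads were looked for in the RefSeq promoter windows (GRCh38.p14, 250 bases before to 50 bases after each transcript start). A pair was GAANNTTC or TTCNNGAA, and a triple was GAANNTTCNNGAA or TTCNNGAANNTTC, searched on both strands, with overlapping matches kept. All 10 genes matched a window, 14 windows in all. A pair stood in 8 of these windows, belonging to 7 genes, and a triple in 4 windows of 4 genes (HSPA8, HSP90AA1, CHORDC1 and HSPD1). Over all 35116 windows of RefSeq genes, 13.5% held a pair and 0.49% a triple. The stretches below show where the letters lie in the 7 genes, with each GAA or TTC of the repeats in capitals, 5′ to 3′ on the gene's strand.
HSPA1A (chr6:31815426-31815455, + strand): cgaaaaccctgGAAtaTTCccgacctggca
HSPA8 (chr11:123062171-123062200, - strand): gcgggccccTTCtgGAAggTTCtaagatag
DNAJB1 (chr19:14518456-14518485, - strand): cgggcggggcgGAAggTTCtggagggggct
HSP90AA1 (chr14:102087105-102087134, - strand): tcTTCcgGAAggTTCgggaggcTTCtgGAA
CHORDC1 (chr11:90223084-90223113, - strand): accgGAAaaTTCgcGAAggTTCctGAAacg
HSPB1 (chr7:76302480-76302509, + strand): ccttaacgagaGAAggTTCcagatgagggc
HSPD1 (chr2:197500061-197500090, - strand): gcattTTCtgGAAagTTCtgGAAccgagcg

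The run in CHORDC1 was the longest printed, with 5 alternating repeats that hold 3 overlapping triples between 60 and 38 bases before the start. HSPA8 held 1 triple from 55 bases before the start and another from 230 bases before it. In HSP90AA1 the triple began 88 bases before the second RefSeq start and a separate pair began 68 bases before it. The HSPD1 run of 4 repeats, which holds 2 overlapping triples, began 245 bases before that gene's second start. HSPD1 and HSPE1 lie head to head, and the printed HSPD1 stretch ends 289 bases before the start of HSPE1, just outside its window. No pair was found in the windows of HSPH1, BAG3 or HSPE1. A match is a description of the letters and no measure of binding, which was not assayed.

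**Figure D1:**
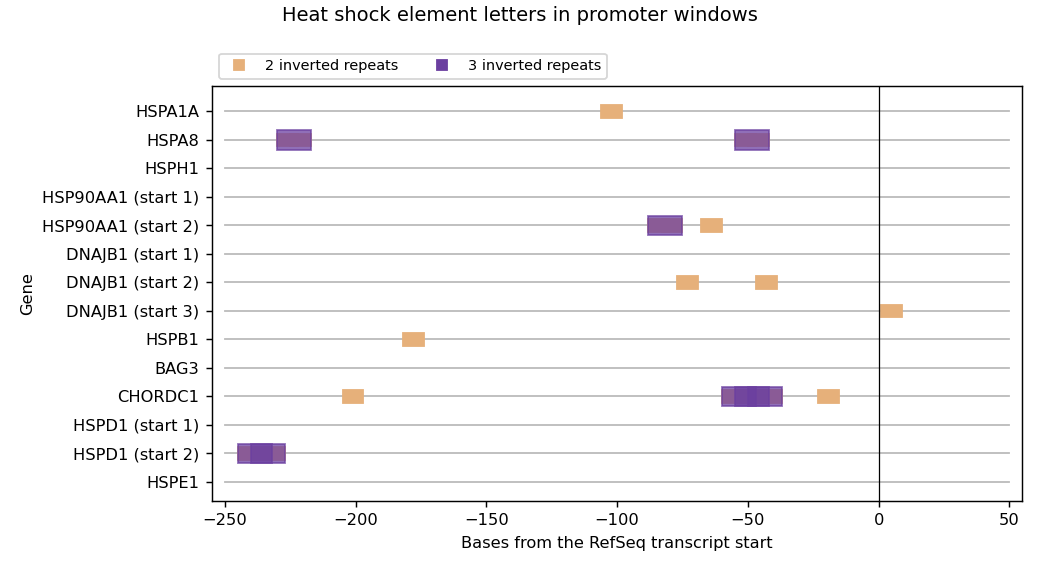
Positions of heat shock element letters in 14 promoter windows of the 10 genes; the x axis is the distance in bases from the RefSeq transcript start, light blocks are pairs of inverted repeats and dark blocks triples. Triples stand in HSPA8, HSP90AA1 (start 2), CHORDC1 and HSPD1 (start 2), and no block in HSPH1, BAG3 or HSPE1.

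HSPA1A, the stress-induced HSP70, was not measurable under its own identifier (chromosome 6, 31815464 to 31817946, GRCh38). It had under 0.5 estimated counts in 26 of 29 libraries and at most 38.2 counts (1.10 CPM), in EV library 2 of batch 3. Its near-identical neighbour HSPA1B had under 0.5 counts in 17 libraries and at most 171 counts (5.21 CPM), in EV library 3 of batch 3. All 9 batch 3 libraries held 50.3 HSPA1B counts or more. So did 1 library of 11 in batch 1 (EV library 2, 56.4 counts) and 1 of 9 in batch 2 (EV library 2, 54.1 counts). MUT library 1 of batch 2 held 46.0 counts, and the remaining libraries of batches 1 and 2 held under 0.5. Kallisto divides reads between such copies by estimation, and the 6656 entries without a symbol, which held 2.69% of all counts, were not searched for other copies. A value near 0 here therefore does not show that the transcript was absent, and no fold change is given for the pair. Their summed counts ran from 0 to 60.7 in batch 1 and from 0 to 54.1 in batch 2, both with a median of 0, and from 53.2 through 74.4 to 199 in batch 3. The sum in batch 3 was thus above that of most libraries of the other batches, and overlapped it in their highest libraries.

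The remaining 9 genes were detected in every library. Levels are compared between genes per kilobase of annotated exon. HSP90AA1, the inducible cytosolic HSP90, averaged 2187 CPM, or 417 CPM per kb. HSPA8, the constitutive HSP70 that also uncoats clathrin vesicles, averaged 978 CPM (202 per kb). HSPD1, the subunit of the mitochondrial chaperonin, averaged 460 CPM (108 per kb). HSPE1, the lid of that chaperonin, averaged 96.6 CPM (48.9 per kb). DNAJB1, a J-domain partner of HSP70, followed at 35.8 CPM per kb, and HSPH1, the HSP110 that resets HSP70, at 26.8 CPM per kb. BAG3, which links HSP70 to autophagy, had 3.19 CPM per kb. CHORDC1, an HSP90 cochaperone with zinc-binding CHORD domains, had 2.66 CPM per kb. HSPB1, a small heat shock protein that holds unfolded protein without ATP, had 2.13 CPM per kb. The last 3 genes overlapped one another in their ranges over libraries (2.26 to 3.96, 2.14 to 3.92 and 0.911 to 5.37 CPM per kb), and so did DNAJB1 (28.9 to 46.7) with HSPE1 (32.8 to 69.8) and with HSPH1 (18.1 to 35.2). HSPE1 and HSPH1 overlapped as well. The range of HSPA8 (143 to 295) overlapped those of HSP90AA1 (281 to 649) and HSPD1 (85.2 to 149). CHORDC1 is entered at 2 places of the table with the same counts, and 1 entry was used, so its level may be understated: both entries together averaged 56.6 CPM, against 28.3 CPM for 1 entry. The 2 entries summed to a whole number, within 0.05, in 23 of the 29 libraries. The place of CHORDC1 by CPM per kb, and its overlap with BAG3, rest on the use of 1 entry. The annotated span of HSPE1 (chromosome 2, 197499994 to 197503457, + strand) lies inside that of HSPD1 (197486581 to 197516737, - strand), and whether the counting used strand is not given, so reads of the overlap may not be separated.

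The batches differed far more than the media. Over the 29 libraries, batch held 89.9% of the variance of log2(CPM + 0.5) for HSPA8, 92.8% for HSPH1, 95.9% for HSP90AA1, 90.2% for DNAJB1, 88.2% for HSPB1 and 91.3% for HSPE1. The median over all genes that passed the filter was 47.0%. HSPD1 (74.5%) and BAG3 (60.7%) were nearer to that median. CHORDC1 stood apart: batch held 23.6% of its variance, medium 15.7%, and the part of the medium difference that varied with batch 42.0%, against a median of 14.4% over all genes. For the other members, medium as such held from 0.333% (HSP90AA1) to 3.07% (HSPD1), below the median gene's 4.84%.

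**Figure D2:**
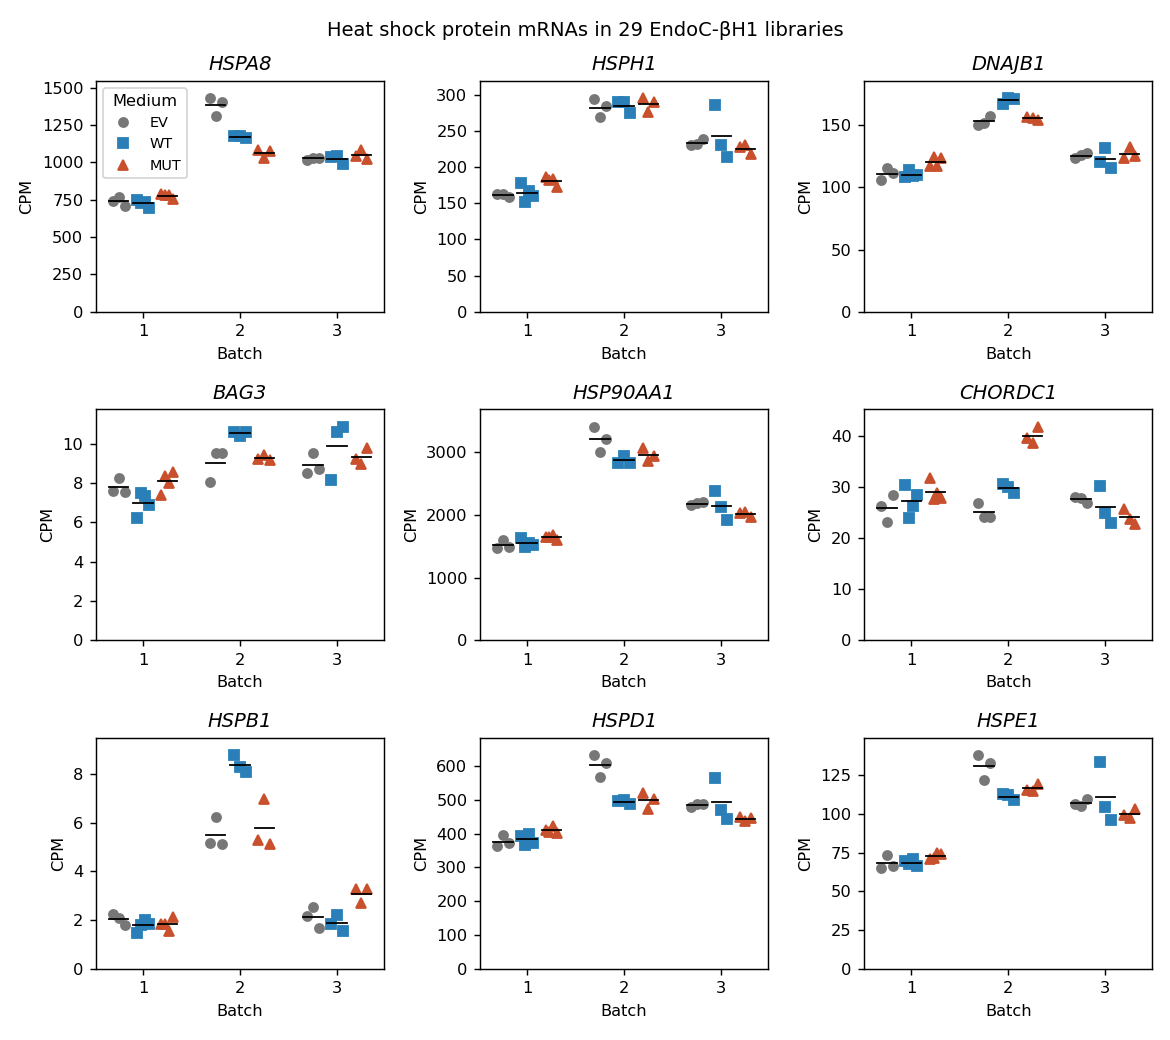
CPM (counts per M, TMM-scaled; y axis from 0) of the 9 measurable genes by batch (x axis) and medium; each symbol is 1 of 29 libraries and each bar the mean of a batch and medium. Means step up from batch 1 to batch 2 in every medium for all genes but CHORDC1, whose EV mean is 26.0 CPM in batch 1 and 25.1 in batch 2. The media separate most in batch 2, as for HSPA8 (EV highest) and CHORDC1 (MUT highest).

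**Figure D3:**
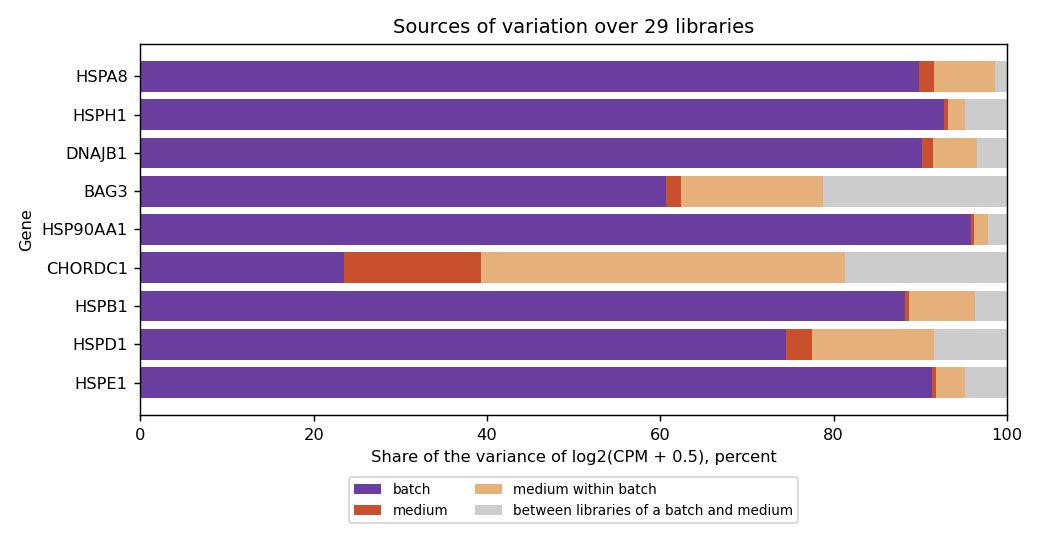
Share of the variance of log2(CPM + 0.5) over 29 libraries (x axis, percent) held by batch, by medium, by medium within batch and between libraries of the same batch and medium, for 9 genes. Batch holds most for every gene but CHORDC1, where it holds 23.6%.

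Every one of the 9 genes was higher in batch 2 than in batch 1, in a model of batch and medium over all libraries (edgeR quasi-likelihood test, Benjamini-Hochberg adjusted p under 0.05). Of all genes tested, 66.7% were called in that comparison and 33.7% were higher, so a call by itself is common. The median log2 difference of the 9 genes was 0.68, against -0.01 over all genes. Batch 3 lay between the other batches for 8 of the 9: relative to batch 1, 8 were higher (background 56.6% called, 29.9% higher) and CHORDC1 was not called (-0.07 ± 0.08). Relative to batch 2, 8 were lower (background 44.5% called, 22.3% lower) and BAG3 was not called (-0.03 ± 0.06). With libraries added up within batch and medium, HSPA8, CHORDC1, HSPD1 and HSPE1 were no longer called between batches 3 and 2 (adjusted p from 0.140 to 0.232). A required fold of 1.2 ended those 4 calls and that of HSPH1, and between batches 3 and 1 it ended those of DNAJB1, HSPB1, BAG3 and HSPD1. The CPM of batch 2 and batch 1 libraries did not overlap for 7 genes (24.2% of all genes), those of batch 3 and batch 1 for 5 (22.1%), and those of batch 3 and batch 2 for 3 (8.98%). These 3 comparisons share libraries. Total counts of batches 1 and 2 overlapped, whereas the mitochondrial share was lower in batch 2 and overlapped nothing of batch 1. Its part in the differences was not tested.

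HSP90AA1 ran from 1475 through a median of 1601 to 1676 CPM in batch 1, from 2830 through 2939 to 3408 in batch 2 and from 1913 through 2127 to 2375 in batch 3. No library of one batch reached the range of another. The difference between batches 2 and 1 was 0.93 ± 0.04 in log2 (edgeR adjusted p = 1.15e-18, all 9 libraries above all 11). HSPA8 ran from 694 through 751 to 790 CPM in batch 1, from 1032 through 1175 to 1429 in batch 2 and from 990 through 1031 to 1080 in batch 3. Batch 1 lay apart from the others, and batches 2 and 3 overlapped. The log2 difference was 0.68 ± 0.04 between batches 2 and 1 (edgeR adjusted p = 1.71e-14) and 0.46 ± 0.04 between batches 3 and 1 (1.75e-10).

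HSPB1 had the largest ratio between batches. Its levels ran from 1.49 through 1.84 to 2.23 CPM in batch 1, from 5.12 through 6.23 to 8.77 in batch 2 and from 1.55 through 2.22 to 3.27 in batch 3. Every batch 2 library was above every library of the other batches, while batches 1 and 3 overlapped. The log2 difference between batches 2 and 1 was 1.81 ± 0.13 (edgeR adjusted p = 2.13e-13). Between batches 3 and 1 it was 0.34 ± 0.14 (adjusted p = 0.0369), a call lost with DESeq2 (0.0592), with limma voom (0.0604), without a filter on low counts (0.0823), with the stricter filter (0.0549) and without any of 14 single libraries, where values ran from 0.25 to 0.33.

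Of the HSP70 partners, HSPH1 had a difference near that of HSPA8, and DNAJB1 and BAG3 smaller ones. DNAJB1 was 0.49 ± 0.03 higher in log2 in batch 2 than in batch 1 (edgeR adjusted p = 6.24e-14), HSPH1 0.75 ± 0.04 (6.86e-16) and BAG3 0.34 ± 0.06 (1.64e-05). In batch 3 the same genes were 0.13 ± 0.03, 0.47 ± 0.04 and 0.31 ± 0.06 above batch 1 (edgeR adjusted p = 0.00101, 5.61e-11 and 0.000105). With libraries added up within batch and medium, DNAJB1 (adjusted p = 0.175), BAG3 (0.0726) and HSPB1 (0.334) were no longer called between batches 3 and 1. CHORDC1 had the smallest difference, 0.19 ± 0.08 between batches 2 and 1 (edgeR adjusted p = 0.0303), a call lost without any of 10 single libraries (values from 0.14 to 0.18). The batch 2 mean of CHORDC1 rests on its MUT libraries, as given further on.

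The chaperonin pair moved unequally. HSPE1 was 0.77 ± 0.05 higher in log2 in batch 2 than in batch 1 (edgeR adjusted p = 1.40e-14) and HSPD1 0.43 ± 0.05 (3.53e-09). In batch 3 the values were 0.60 ± 0.05 and 0.27 ± 0.05 (8.28e-12 and 2.30e-05). The ratio of HSPE1 to HSPD1 CPM was accordingly 0.179 ± 0.00419 in batch 1 (SD, n = 11), 0.225 ± 0.00905 in batch 2 (n = 9) and 0.224 ± 0.00670 in batch 3 (n = 9). Ranges were 0.172 to 0.186, 0.214 to 0.242 and 0.216 to 0.237, so batch 1 lay below the others without overlap. A ratio within a library does not depend on how the library is scaled.

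Among media, none of the 9 genes was called over the 29 libraries with batch in the model. The backgrounds called were 5.2% of all genes between MUT and EV, 0.884% between MUT and WT, and 0.315% between WT and EV. The counts were 0 with DESeq2 and with limma voom too. At an unadjusted p under 0.05 there was 1 gene in MUT vs EV (CHORDC1), 0 in MUT vs WT and 1 in WT vs EV (HSPA8). CHORDC1 was 0.22 ± 0.08 higher in log2 in MUT than in EV medium (edgeR adjusted p = 0.0992). Without batch 3 that value was 0.40 (adjusted p = 0.00157), without batch 2 it was -0.01, and without MUT library 3 of batch 3 it was 0.25 and past the threshold. HSPA8 was -0.09 ± 0.04 in WT vs EV (edgeR adjusted p = 0.351). In MUT vs EV the other 8 genes lay between -0.08 ± 0.04 (HSPA8) and 0.15 ± 0.14 (HSPB1), and HSPD1, at -0.08 ± 0.05, reached -0.20 (adjusted p = 0.0498) without batch 1. The 3 comparisons share their media in pairs.

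The medium differences varied between batches more than the spread between libraries for several genes, as tested by the interaction of medium and batch in edgeR. The MUT vs EV difference varied for 5 of 9 genes (background 44% of all genes): HSPA8 (adjusted p = 2.47e-07), CHORDC1 (3.70e-06), HSPD1 (0.000511), HSP90AA1 (0.0172) and HSPB1 (0.0359). The MUT vs WT difference varied for 6 (background 28.4%): HSPB1 (0.000226), CHORDC1 (0.00373), DNAJB1 (0.00424), HSPA8 (0.00509), BAG3 (0.0293) and HSPD1 (0.0383). The WT vs EV difference varied for 5 (background 24.1%): HSPA8 (0.00373), HSPD1 (0.00383), HSPB1 (0.00434), DNAJB1 (0.0439) and BAG3 (0.0468). The first of these counts, 5 of 9, is near the share of all genes. Several of these calls rested on single libraries. For MUT vs EV, HSPB1 was lost without any 1 of 6 libraries and HSP90AA1 without either of 2. For MUT vs WT, HSPD1 was lost without any 1 of 16 and BAG3 without any 1 of 9, and for WT vs EV, BAG3 without any 1 of 16 and DNAJB1 without any 1 of 12. The other 10 calls held with each library left out in turn. Without a filter on low counts, 3, 2 and 3 genes were called in the 3 comparisons. Without EV library 2 of batch 1, 3 of 9 genes were called for MUT vs EV, and without WT library 1 of batch 3, 7 were. Leaving out any 1 of 9 libraries of batches 1 and 2 reduced the count for WT vs EV from 5 to 3.

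All calls of the 9 genes within a batch came from batch 2. Fitted alone, batch 2 gave 5 called genes of 9 in MUT vs EV, 1 higher and 4 lower (background 47.8% called, 24.1% higher and 23.8% lower). WT vs EV gave 8, 4 higher and 4 lower (38.9%, 19.6% and 19.3%), and MUT vs WT gave 4, 1 higher and 3 lower (33.1%, 16.8% and 16.4%). Batches 1 and 3 gave none in any of the 3 comparisons (backgrounds of 1.4%, 0.0143% and 0.277% in batch 1, and 0.049%, 0.00981% and 1.22% in batch 3, in the same order). At an unadjusted p under 0.05 there were 3, 0 and 3 genes in batch 1 and 2, 0 and 2 in batch 3. The count for MUT vs EV in batch 2 is near the share of all genes, and the members split in direction, so the values of each gene carry the description.

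**Figure D4:**
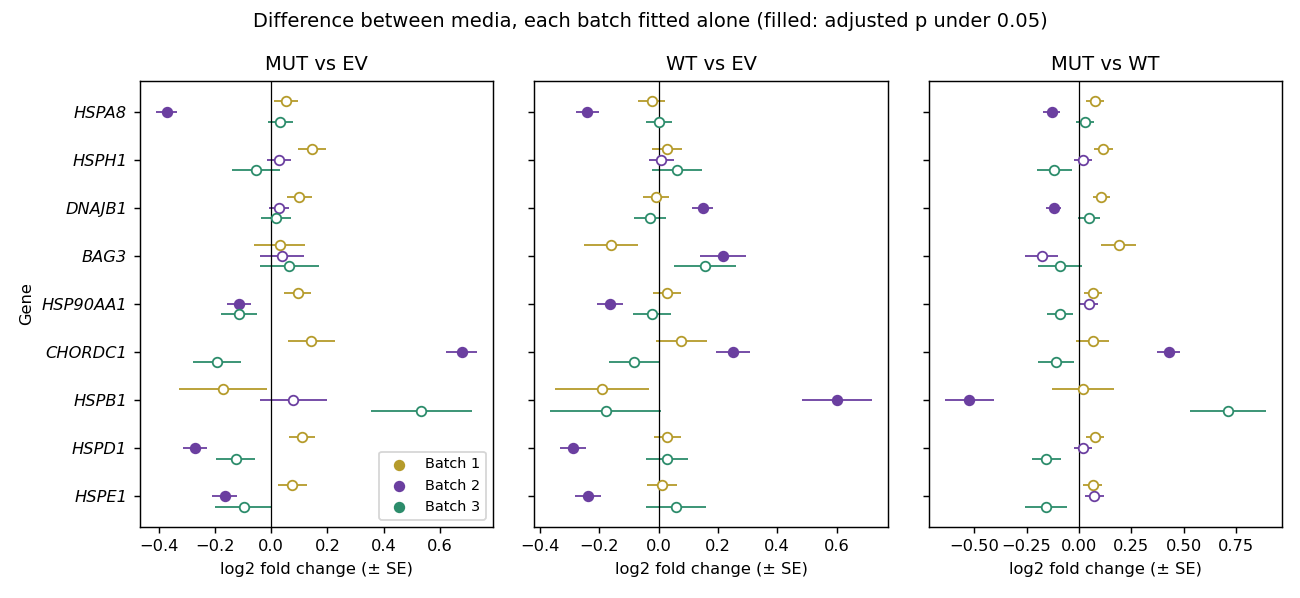
Log2 fold change ± SE (x axis) of 9 genes between media, with each batch fitted alone in edgeR; filled points have an adjusted p under 0.05. Filled points are those of batch 2 only, with CHORDC1 highest and HSPA8 lowest in MUT vs EV, HSPB1 highest in WT vs EV, and HSPB1 on opposite sides of 0 in batches 2 and 3 in MUT vs WT.

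HSPA8 fell stepwise across the media of batch 2. EV libraries 1 to 3 had 1429, 1310 and 1403 CPM, WT libraries 1175, 1175 and 1160, and MUT libraries 1085, 1032 and 1075. The 3 groups did not overlap, with EV highest and MUT lowest. The log2 change was -0.37 ± 0.04 for MUT vs EV (edgeR adjusted p = 4.66e-07), -0.24 ± 0.04 for WT vs EV (8.08e-05) and -0.13 ± 0.04 for MUT vs WT (0.0144). The last was not called without WT library 1 (-0.13) or WT library 2 (-0.13) of that batch. In batch 1 the EV libraries had 742, 770 and 708 CPM and the MUT libraries 790, 784, 781 and 755, and the log2 difference was 0.05 ± 0.04. In batch 3 it was 0.03 ± 0.04, from 1016, 1031 and 1029 CPM in EV and 1045, 1080 and 1021 in MUT. EV and MUT overlapped in both of those batches.

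CHORDC1 did the opposite in batch 2. EV libraries 1 to 3 had 26.9, 24.1 and 24.2 CPM, WT libraries 30.7, 30.0 and 28.8, and MUT libraries 39.5, 38.5 and 41.8. The groups again did not overlap, with EV lowest and MUT highest. The log2 change was 0.68 ± 0.06 for MUT vs EV, a 1.60-fold rise (edgeR adjusted p = 3.05e-08), 0.43 ± 0.06 for MUT vs WT (1.36e-05) and 0.25 ± 0.06 between WT and EV (0.00205). In batch 3 the direction was the other way: EV libraries had 28.1, 27.8 and 26.9 CPM and MUT libraries 25.8, 23.8 and 22.8, all below EV, with a log2 difference of -0.19 ± 0.09 that was not called (edgeR adjusted p = 0.313). In batch 1, EV (26.3, 23.2 and 28.4 CPM) and MUT (31.8, 27.6, 28.8 and 27.9 CPM) overlapped, with 0.14 ± 0.08.

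HSP90AA1, whose client cycle CHORDC1 serves, was highest in EV medium of batch 2. EV libraries 1 to 3 had 3408, 3005 and 3203 CPM, WT libraries 2830, 2939 and 2833, and MUT libraries 3062, 2856 and 2938. WT lay below all EV libraries and MUT overlapped EV. The log2 change was -0.16 ± 0.04 for WT vs EV (edgeR adjusted p = 0.00678) and -0.11 ± 0.04 for MUT vs EV (0.0401). The latter call was lost without any of 7 single libraries of the batch, among them EV library 1 (-0.07) and MUT library 2 (-0.10), and kept its sign.

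Both chaperonin genes were lower in batch 2 under either CEL medium. HSPD1 had 632, 568.2 and 609 CPM in EV libraries 1 to 3, 497, 499 and 488 in WT and 520, 474 and 503 in MUT. EV lay above both others without overlap, and WT and MUT overlapped. The log2 change was -0.29 ± 0.04 for WT vs EV (edgeR adjusted p = 4.45e-05), -0.27 ± 0.04 for MUT vs EV (5.90e-05) and 0.02 ± 0.04 between MUT and WT (0.787). HSPE1 had 138, 122 and 133 CPM in EV, 113, 112 and 109 in WT and 116, 115 and 119 in MUT, with EV again above the rest. Its log2 change was -0.24 ± 0.05 for WT vs EV (edgeR adjusted p = 0.000409) and -0.16 ± 0.04 for MUT vs EV (0.00564). In batch 1, HSPD1 was higher in all MUT libraries (412, 405, 424 and 403 CPM) than in all EV libraries (362, 396 and 372 CPM), by 0.11 ± 0.05, which was not called (edgeR adjusted p = 0.180). In batch 3 it was lower in all MUT (448, 436 and 445 CPM) than in all EV libraries (478, 487 and 487 CPM), by -0.13 ± 0.07, also not called (edgeR adjusted p = 0.419).

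HSPB1 and DNAJB1 singled out the WT medium of batch 2. HSPB1 had 5.16, 6.23 and 5.12 CPM in EV libraries 1 to 3, 8.77, 8.26 and 8.07 in WT and 5.27, 6.97 and 5.13 in MUT. WT lay above both others, which overlapped. The log2 change was 0.60 ± 0.12 for WT vs EV (edgeR adjusted p = 0.000537), -0.52 ± 0.12 for MUT vs WT (0.00216) and 0.08 ± 0.12 for MUT vs EV (0.622). DNAJB1 had 150, 151 and 157 CPM in EV, 167, 171 and 171 in WT and 156, 155 and 154 in MUT, with WT again apart. It was 0.15 ± 0.04 higher in WT than in EV (edgeR adjusted p = 0.00336) and changed by -0.12 ± 0.04 in MUT vs WT (0.0157), a call lost without WT library 2 (-0.11) or WT library 3 (-0.12). The mitochondrial share of the counts was also lowest in the WT libraries of this batch (3.99% to 4.05%, against 4.80% to 5.25% in EV and 4.89% to 5.41% in MUT), and its part in these differences was not tested.

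In batch 3, HSPB1 was highest in MUT medium instead. EV libraries 1 to 3 had 2.17, 2.53 and 1.67 CPM, WT libraries 1.84, 2.22 and 1.55, and MUT libraries 3.25, 2.71 and 3.27. All MUT libraries were above all others, yet the log2 difference of 0.71 ± 0.18 for MUT vs WT did not pass the threshold (edgeR adjusted p = 0.0701), nor did 0.53 ± 0.18 for MUT vs EV (0.207). Without a filter on low counts, and with the stricter one, the MUT vs WT value was called (0.72 and 0.71).

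BAG3 was highest in WT medium of batch 2, at 10.6, 10.4 and 10.6 CPM, against 8.07, 9.54 and 9.51 in EV and 9.21, 9.41 and 9.18 in MUT. WT lay above both other groups. The log2 difference was 0.22 ± 0.08 for WT vs EV (edgeR adjusted p = 0.0358), a call lost without EV library 1 (0.14), without any 1 WT library (0.21 to 0.22) and without a filter on low counts (0.21). HSPH1 was called in no medium comparison of any batch. In batch 1 it had 186, 182, 184 and 172 CPM in MUT libraries against 163, 162 and 158 in EV, a difference of 0.15 ± 0.05 (edgeR adjusted p = 0.111) that passed the threshold, at 0.17, without MUT library 4.

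The groups were also compared by whether their libraries overlapped. In batch 1, HSPH1, DNAJB1 and HSPD1 were higher in all MUT than in all EV libraries and none was lower (17% of all genes did not overlap there). In batch 2, CHORDC1 was higher and HSPA8, HSPD1 and HSPE1 were lower (52.8%). In batch 3, HSPB1 was higher and HSPH1, HSP90AA1, CHORDC1, HSPD1 and HSPE1 were lower (25%). HSPD1 thus lay above EV in batch 1 and below EV in batches 2 and 3. All MUT libraries lay above all WT libraries in batch 1 for HSPA8, DNAJB1, HSPD1 and HSPE1 (10.2% of all genes did not overlap) and in batch 3 for HSPB1 (20.3%). In batch 2, MUT lay above WT for CHORDC1 and HSPE1 and below it for HSPA8, DNAJB1, HSPB1 and BAG3 (45.3%). WT and EV did not overlap in batch 2 for 8 genes, 4 in each direction (48.4%), and in batch 1 for BAG3, which was lower in WT (12%). In batch 3 they overlapped for all 9 genes (10.2% of all genes did not).

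WT library 1 of batch 3 was above the other WT libraries of its batch for some members. It had 285 CPM of HSPH1 against 231 and 214, 2375 of HSP90AA1 against 2127 and 1913, 564 of HSPD1 against 470 and 443, and 133 of HSPE1 against 104 and 96.0. CHORDC1 was highest there too (30.2 against 25.0 and 23.0 CPM), while BAG3 was lowest (8.17 against 10.6 and 10.9 CPM). HSPA8, DNAJB1 and HSPB1 lay between the other libraries. It was also the shallowest library, with 26.2 M counts, and had the lowest mitochondrial share, 3.60%. The part of depth and of that share was not tested. Without it, 0 of 9 genes were still called in each comparison of batch 3 alone, HSPD1 no longer varied between batches in MUT vs WT (edgeR adjusted p = 0.275), and HSPH1 (0.0354) and HSPE1 (0.00796) did in MUT vs EV, as did CHORDC1 (0.00868) and HSPE1 (0.0189) in WT vs EV.

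Genes were ranked by Pearson correlation of log2 CPM with HSPD1 over the 29 libraries after removal of batch means. The ranking left out the members and the 105 wider chaperone genes described below. It held 12875 genes with a mean of at least 5 CPM, of which those without a symbol could not be named. The highest of those with a symbol were ANP32B (0.939), LDHB (0.929), HNRNPU (0.926), SMS (0.920) and RBBP4 (0.916). HSPE1 (0.921) and HSP90AA1 (0.916) were as close, HSPA8 (0.722) and HSPH1 (0.614) less so, while DNAJB1 (-0.127), CHORDC1 (-0.146) and BAG3 (-0.359) had values below 0. Libraries share media, scaling and depth, so these values are a description.

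The wider chaperone network was described with 105 genes in 10 lists, of which 96 passed the filter. Over all libraries, MUT vs EV called 8 of them, 7 higher and 1 lower. Of all 21259 genes tested, 5.2% were called, 628 genes higher and 478 lower. The median log2 difference of the wider genes was 0.03 against 0.00 for all genes. The endoplasmic reticulum counterparts had 3 of 8 higher: HYOU1, the HSP110 of that compartment (0.18 ± 0.04, edgeR adjusted p = 0.0196), HSPA5, its HSP70 known as BiP (0.15 ± 0.03, 0.0207), and DNAJB9, a J-domain protein (0.20 ± 0.06, 0.0473). HSP90B1, the HSP90 of that compartment, was at 0.12 ± 0.05 (edgeR adjusted p = 0.108). Of 13 J-domain cochaperones, DNAJB5 (0.26 ± 0.06, edgeR adjusted p = 0.0229) and DNAJB6 (0.18 ± 0.05, 0.0335) were higher. HSBP1, which binds HSF1 and restrains it, was 0.14 ± 0.04 higher (edgeR adjusted p = 0.0354), and the prefoldin subunit PFDN1 0.10 ± 0.03 higher (0.0382). TRAP1, the mitochondrial HSP90, changed by -0.13 ± 0.04 (edgeR adjusted p = 0.0424). None of these 8 calls remained with limma voom (adjusted p from 0.170 to 0.393), in fits of only the 2 media compared, with libraries added up within batch and medium, or without batch 2. MUT vs WT and WT vs EV called 0 of 96 (backgrounds 0.884% and 0.315%), with 16 and 11 at an unadjusted p under 0.05.

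Between batches, the wider network had the following counts. Batch 2 vs batch 1 called 75 of 96 genes (background 66.7%), 64 higher (background 33.7%) and 11 lower, with a median log2 difference of 0.33. The share called is near that of all genes. All 14 measured subunits of the cytosolic chaperonin TRiC and of prefoldin were higher, led by CCT3 (0.83 ± 0.02, edgeR adjusted p = 1.39e-22). Of 14 genes of HSP90 and its cochaperones, 9 were higher and 1 lower, among them AHSA1, which speeds the ATPase of HSP90 (0.86 ± 0.02), STIP1, which hands clients from HSP70 to HSP90 (0.78 ± 0.03), and HSP90AB1, the constitutive HSP90 (0.86 ± 0.04). Of 7 cytosolic HSP70 and HSP110 genes, HSPA4 was higher and HSPA2, known from the testis, lower (-0.19 ± 0.04, edgeR adjusted p = 0.000257). Of 2 measured small heat shock proteins, HSPB6 was lower (-0.66 ± 0.22, edgeR adjusted p = 0.0116) and none was higher. With libraries added up within batch and medium, neither HSPA2 (adjusted p = 0.104) nor HSPB6 (0.284) was called. The J-domain protein DNAJA1 was 0.64 ± 0.04 higher, the HSP110 HSPA4 0.31 ± 0.04, the mitochondrial HSP70 HSPA9 0.32 ± 0.03 and HSPA5 0.73 ± 0.03. Among CCT3 and the genes given here as higher, the largest edgeR adjusted p-value was 1.41e-08, that of HSPA4. Batch 3 vs batch 1 called 67 of 96 (background 56.6%), 58 higher (background 29.9%) and 9 lower, with TRiC and prefoldin again higher in 14 of 14.

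Of the heat shock factors, HSF1 and HSF2 were not called relative to batch 1. HSF1, the main regulator, was at -0.03 ± 0.06 in batch 2 vs batch 1 (edgeR adjusted p = 0.639) and -0.07 ± 0.06 in batch 3 vs batch 1, and HSF2, a related factor, at -0.08 ± 0.04 (0.0741) and 0.06 ± 0.04 (0.231). HSF2 in batch 2 vs batch 1 was called lower with limma voom (-0.15, adjusted p = 0.00153), and in edgeR without any 1 of 17 of the 29 libraries (values over all 29 from -0.11 to -0.07). HSF2 was higher in batch 3 than in batch 2, by 0.14 ± 0.04 (edgeR adjusted p = 0.00792, and 0.344 with libraries added up within batch and medium). HSF4 was lower, by -0.67 ± 0.07 and -0.83 ± 0.07, and HSBP1 higher, by 0.48 ± 0.04 and 0.43 ± 0.04. The RNA level of HSF1 does not report its activity, which is set at the protein.

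**Figure D5:**
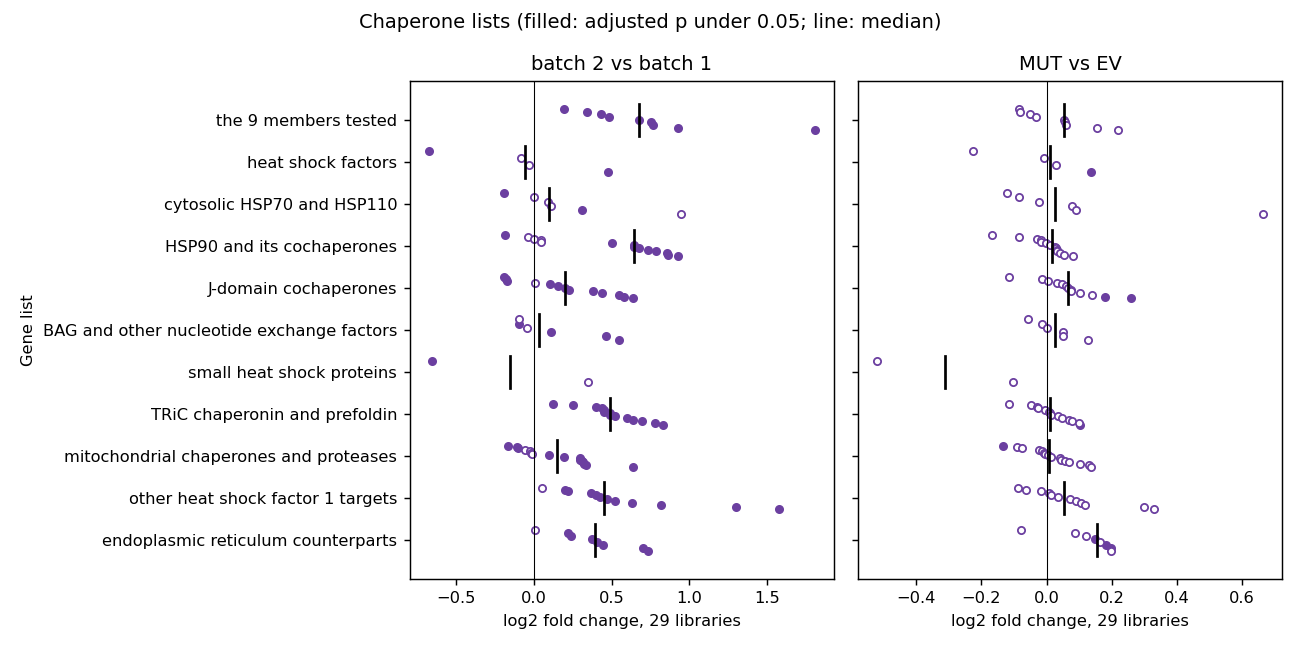
Log2 fold change (x axis) of each tested gene in 10 wider chaperone lists and of the 9 members, for batch 2 vs batch 1 and MUT vs EV over 29 libraries; filled points have an edgeR adjusted p under 0.05, lines are medians, and HSPA1B is left out. In batch 2 vs batch 1 all 14 TRiC and prefoldin genes lie above 0, and in MUT vs EV most points lie near 0.

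Within batch 1 alone, MUT vs EV called 3 of 94 wider genes (background 1.4%). HSPA5 (0.21 ± 0.04, edgeR adjusted p = 0.0462) and the endoplasmic reticulum counterpart DNAJC3 (0.29 ± 0.06, 0.0462) were higher. The prefoldin subunit PFDN5 was lower (-0.22 ± 0.05, 0.0474). MUT vs WT called 1 of 94 there (background 0.277%), HSPA5 (0.19 ± 0.04, edgeR adjusted p = 0.0481). Batch 3 alone called 0 of 96 in both comparisons (backgrounds 0.049% and 1.22%). Within batch 2 alone, MUT vs EV called 54 of 95 wider genes, 31 higher and 23 lower, near the shares of all genes in that fit (47.8% called, 24.1% higher and 23.8% lower). The endoplasmic reticulum counterparts were higher in 7 of 8 and lower in 1, with HSPA13 at 0.63 ± 0.05 (edgeR adjusted p = 1.19e-08), HSP90B1 at 0.25 ± 0.04 (9.61e-05) and HSPA5 at 0.19 ± 0.03 (0.000165). The J-domain genes were higher in 9 of 13 and lower in 2, with DNAJB5 at 0.61 ± 0.06 (7.20e-07) and DNAJB6 at 0.45 ± 0.04 (2.19e-07). Lower were the small heat shock protein HSPB6 (-2.15 ± 0.13, edgeR adjusted p = 6.83e-10), the HSP90 cochaperone FKBP5, known as a target of glucocorticoid receptors (-0.59 ± 0.05, 1.38e-08), the HSP70 relative HSPA12A (-0.52 ± 0.08, 2.84e-05), the mitochondrial protease AFG3L2 (-0.34 ± 0.04, 1.50e-06) and TRAP1 (-0.34 ± 0.04, 9.41e-06).
WT vs EV in the same batch gave HSPB6 at -1.27 ± 0.12, FKBP5 at -0.50 ± 0.05 and HSPA12A at -0.51 ± 0.08, and shares its EV libraries with the comparison above. HSP90AB1, beside the fall of HSP90AA1, changed by -0.16 ± 0.04 in MUT vs EV (edgeR adjusted p = 0.00154) and was at -0.06 ± 0.04 in WT vs EV (0.207). HSF1 was 0.21 ± 0.06 higher in WT than in EV (edgeR adjusted p = 0.00733) and HSF2 changed by -0.21 ± 0.05 (0.00156), while in MUT vs EV they were at -0.01 ± 0.06 and 0.08 ± 0.05 and were not called (0.896 and 0.178).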

How the data were processed

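Polyadenylated RNA of 29 libraries was sequenced as paired 100-base reads with a stranded kit, per the labels' protocols. The deposited values are estimated counts by Ensembl identifier, not normalized. The submitters' processing notes name fastp (read trimming) and kallisto (transcript quantification). Their versions, the genome build and the annotation were not given in the sources used here. Symbols, coordinates and exon lengths came from GENCODE release 29 by identifier, promoter sequences from RefSeq. Estimated counts were rounded, filtered with filterByExpr, scaled by TMM and tested with edgeR 4.0.16 (limma 3.58.1, R 4.3.3), quasi-likelihood with robust prior and Benjamini-Hochberg adjustment, on batch and medium (24 residual degrees of freedom), with their interaction, and per batch. The SE is the log2 change divided by the root of F. Errors beside levels are SDs, and those beside log2 values are SEs. The test was checked on simulated data.

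Wider genes that could be named were, per comparison and list, the 4 with the smallest p among those that passed, plus HSF1, HSF2, HSPA9, HSP90AB1, TRAP1, HSPA5 and HSP90B1. Which of these are printed was decided after their values were seen. HSPA1B was named as the near-identical copy of HSPA1A. Also named were the 5 genes most like HSPD1 by correlation, among those with a symbol and outside the members and wider lists. None is given for HSPA1A, which had almost no counts. Members and lists were chosen with earlier results of these data known. Alternatives were DESeq2 1.42.0, its size factors, total library size, no or a stricter filter (1 CPM in 9 libraries), no batch or medium term, a block on replicate number, fits of only the 2 groups, summed profiles, limma voom (quality weights), a required fold of 1.2, HSPA1A and HSPA1B summed, and each batch or library left out. The fit without robust prior was chosen after seeing the data. The sample number of EV library 2 in batch 1 breaks the series' numbering, and the library was used as labelled.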

Additional observations from a re-analysis of the deposited data

Results flagged for a closer look

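The medium differences varied between batches for 5 of the 9 measurable genes in MUT vs EV, 6 in MUT vs WT and 5 in WT vs EV. The test was the interaction of medium and batch in edgeR's quasi-likelihood fit over all 29 libraries. Of all genes tested, 44% had such a result between MUT and EV, 28.4% between MUT and WT, and 24.1% between WT and EV. Without a filter on low counts, 3, 2 and 3 of the members had one. For MUT vs EV the adjusted p-values were 2.47e-07 for HSPA8, 3.70e-06 for CHORDC1, 0.000511 for HSPD1, 0.0172 for HSP90AA1 and 0.0359 for HSPB1. For MUT vs WT they were 0.000226 for HSPB1, 0.00373 for CHORDC1, 0.00424 for DNAJB1, 0.00509 for HSPA8, 0.0293 for BAG3 and 0.0383 for HSPD1. For WT vs EV the edgeR adjusted values were 0.00373 for HSPA8, 0.00383 for HSPD1, 0.00434 for HSPB1, 0.0439 for DNAJB1 and 0.0468 for BAG3. HSPH1 and HSPE1 had no such result in any of the 3 comparisons. What differed between the batches is not labelled, and the cause was not tested.

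In a search for single libraries far from the rest, each gene was examined in the libraries of each medium over all batches and in the WT and MUT libraries of batch 1, 45 groups in all. None (0) held such a library, where chance gives about 1 in 20. Groups of 3, among them every medium of batches 2 and 3, were not examined this way. The result therefore says little about a library apart from the others of its own batch and medium. WT library 1 of batch 3 was such a library for HSPH1 (285 against 231 and 214 CPM).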

How the results depend on the processing

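The count of changed members among media stayed at 0 of 9 under every alternative but these: MUT vs EV had 1 without batch 1 (HSPD1), without batch 3 (CHORDC1) or without MUT library 3 of batch 3 (range 0 to 1 over single libraries left out). Batch 3 vs batch 1 fell from 8 to 4 with a required fold of 1.2 and to 5 with summed profiles, and batch 3 vs batch 2 from 8 to 3 and 4. In batch 2 vs batch 1 the fold of CHORDC1 was 1.14, below the required 1.2. With single libraries left out, the count ran from 8 to 9 in batch 2 vs batch 1 and from 7 to 8 in batch 3 vs batch 1. Without a filter on low counts, the interaction held for 3 members in MUT vs EV, 2 in MUT vs WT and 3 in WT vs EV. In batch 3 alone, MUT vs WT had 1 without a filter and 1 with the stricter one (HSPB1).

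With single libraries left out, the counts ran from 3 to 7 (MUT vs EV), 4 to 9 (MUT vs WT) and 3 to 7 (WT vs EV) for the interaction, from 4 to 5, 2 to 4 and 7 to 8 in batch 2 alone in that order, and from 0 to 1 for MUT vs EV in batch 1 alone. The count of 3 for WT vs EV came without EV library 4, WT library 1 or WT library 4 of batch 1, or without EV library 1, WT library 2 or 3 or any MUT library of batch 2. The 1 in batch 1 came without MUT library 4, and the 2 in batch 2 without WT library 2.

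Log2 differences that changed sign were of members not called among media. Without batch 1 they were, for MUT vs EV, HSPH1 (-0.015), and for MUT vs WT, HSPA8 (-0.049), HSPH1 (-0.050), HSP90AA1 (-0.023), DNAJB1 (-0.040) and HSPE1 (-0.045). Without batch 2 they were, for MUT vs EV, HSPA8 (0.048), HSP90AA1 (0.0031), CHORDC1 (-0.0078), HSPD1 (0.0073) and HSPE1 (0.0021), for MUT vs WT, BAG3 (0.076) and HSPE1 (-0.020), and for WT vs EV, DNAJB1 (-0.027), HSPB1 (-0.17), BAG3 (-0.018), CHORDC1 (-0.012), HSPD1 (0.017) and HSPE1 (0.023). Without batch 3 they were, for MUT vs EV, HSP90AA1 (0.0015) and HSPB1 (-0.023), and for MUT vs WT, HSPB1 (-0.26), BAG3 (0.034) and HSPD1 (0.064). With no batch term they were HSPA8 (-0.0097), HSPB1 (-0.16) and HSPE1 (-0.0036) for MUT vs WT and HSPH1 (-0.0075) for WT vs EV. Scaled by total library size, MUT vs WT gave HSPA8 at -0.0043 and HSPE1 at -0.0081. With limma voom, MUT vs WT gave HSPB1 at -0.064 and HSPD1 at 0.023, and WT vs EV gave CHORDC1 at -0.016. DESeq2 gave HSPD1 at 0.0011 in MUT vs WT. HSF1 was at 0.067 without batch 1 and 0.0040 with summed profiles in MUT vs EV, and at 0.036 with limma voom in batch 2 vs batch 1.

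Single libraries left out turned the sign, for MUT vs WT, of BAG3 (-0.039 to 0.021), HSPA8 (-0.0040 to 0.034), HSPB1 (-0.045 to 0.080), HSPD1 (-0.019 to 0.032) and HSPE1 (-0.0079 to 0.053), for WT vs EV of HSPH1 (-0.0087 to 0.046), and for MUT vs EV of HSF1 (-0.030 to 0.015). In batch 2 alone they turned HSPB1 (-0.082 to 0.17) and HSF1 (-0.059 to 0.044) in MUT vs EV and HSPD1 (-0.011 to 0.049) in MUT vs WT. The cause of these changes was not tested.

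Replicate numbers recur across media, but same-numbered libraries did not deviate together: of 28 pairs within a batch, 3 had a correlation over 0.1 (range -0.0667 to 0.142). The labels do not say whether they were handled together. With that number as a replicate block (17 residual degrees of freedom), 0 members were called in each comparison of media. The block gave MUT vs WT values of 0.0032 for BAG3 and 0.0018 for HSPD1, and left none of the 8 wider MUT vs EV calls (adjusted p from 0.0696 to 0.112).

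HSPA1A had too few counts for a fold change, and HSPB1, at a few CPM, has wide errors. Only 9 libraries make up batches 2 and 3 each, and what a batch stands for is not given, so medium differences seen in 1 batch have no repeat under the same conditions.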
